A study of Mus musculus with 6 samples.

Results

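The zinc, copper and iron handling genes described here are the 14 Slc39 (ZIP) and 9 Slc30 (ZnT) transporter genes of the count table together with 18 named genes of metallothionein, copper and iron biology. They make 41 genes of the 21534 in the table, and were chosen by name. Their mRNA was measured by bulk RNA sequencing in epithelial organoids derived from ileal crypts of C57Bl/6 mice without a genetic change. Every culture was first kept for 96 hours with 10 µM CHIR99021, a GSK3 inhibitor and Wnt pathway activator used to enrich stem cells. Then 3 cultures received 10 µM all-trans retinoic acid, a vitamin A metabolite that acts on nuclear receptors, for 24 hours, and 3 cultures received the vehicle DMSO for as long. Nothing in the labels tells whether the 3 libraries of an arm stem from different animals or organoid lines, so the p-values below reflect only the spread among these libraries, which may be technical.

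Metal ions enter and leave enterocytes through dedicated membrane proteins. ZIP proteins move zinc and related metals into the cytosol, ZnT proteins move them out of it, and metallothioneins bind the excess. Dietary iron is reduced at the brush border, taken up as ferrous iron, stored in ferritin or exported from the basolateral side, and iron regulatory proteins adjust the translation or stability of the mRNAs involved. Copper enters through CTR1 and is pumped onwards by the ATPases ATP7A and ATP7B.

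Libraries held 15080190 to 21833846 counted reads with retinoic acid and 14919144 to 16927696 with vehicle. Over the tested genes, deviations from the group means correlated at 0.346 between library 3 of one group and library 3 of the other. Between library 3 and the other group's libraries 1 and 2 they correlated at −0.226 to −0.178. Library 3 of both groups thus stood apart from the others. Cell type markers moved with the treatment, where 5.37% of all tested genes were higher and 4.09% lower by the threshold given below. Of 10 stem cell markers 6 were lower and none higher with retinoic acid (CPM, counts per 1000000 of the scaled library size; summed level 1175 to 1225 CPM in retinoic acid libraries and 1827 to 1891 CPM in vehicle libraries), and of 18 cell cycle genes 14 were lower and none higher (648 to 729 and 928 to 978 CPM). Of 11 tested Paneth cell markers 6 were lower and 1 higher (5428 to 5684 and 6061 to 6595 CPM), and of 14 enterocyte markers 3 were lower and 3 higher (1896 to 2359 and 2152 to 2355 CPM). The enterocyte genes moved in both directions: Fabp1, of a fatty acid binding protein, averaged 18.3 ± 5.31 CPM with retinoic acid and 0.692 ± 0.0847 CPM with vehicle, and Alpi, of the brush border alkaline phosphatase, 11.9 ± 1.19 CPM and 21.2 ± 5.54 CPM (SD, n = 3 each). The Paneth cell gene Lyz1 averaged 3382 ± 161 CPM with retinoic acid and 3789 ± 146 CPM with vehicle (SD, n = 3 each). Lyz1 was not called (adjusted p = 0.0720). The labels call these cultures intestinal stem cells. The fibroblast marker Col1a1 averaged 0.297 CPM with retinoic acid and 0.639 CPM with vehicle, and the leukocyte marker Ptprc 0 and 0.0395 CPM. The summed level of 9 fibroblast markers was 6.91 to 9.35 CPM in retinoic acid libraries and 10.0 to 11.6 CPM in vehicle libraries. Most of it came from Tagln, at 4.80 CPM with retinoic acid and 5.24 CPM with vehicle, and Pdgfrb, at 2.75 and 4.11 CPM. Neither was called (adjusted p = 0.817 and 0.219), and the other fibroblast markers were too low to test. The summed level of 7 leukocyte markers was 28.96 to 33.8 CPM in retinoic acid libraries and 25.0 to 29.6 CPM in vehicle libraries. Of the 3 leukocyte markers that could be tested 1 was higher, the macrophage gene Cd68, at 7.28 ± 1.42 CPM with retinoic acid and 4.31 ± 0.371 CPM with vehicle (SD, n = 3 each; adjusted p = 0.0216). Most of the sum came from Csf1r, at 20.8 CPM with retinoic acid and 21.1 CPM with vehicle, which was not called. In such bulk samples, fewer cells of a type and less RNA per cell cannot be told apart, and the part of cell composition in the members' changes was not tested.

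With retinoic acid, 5 of the 39 members that could be tested were higher and 1 was lower. The lower one was the brush border iron reductase gene Cybrd1, and the higher ones were the haem oxygenase gene Hmox1, the ferritin light chain gene Ftl1 and the zinc transporter genes Slc30a1, Slc39a4 and Slc39a1. A member was called at a Benjamini-Hochberg adjusted p under 0.05 over all 13700 genes tested in edgeR's quasi-likelihood test. Calls were made for 9.46% of all tested genes, 5.37% higher and 4.09% lower, and for 15.4% of the tested members. The median log2 fold change was −0.02 over the members and −0.01 over all tested genes, and the median absolute log2 fold change was 0.11 and 0.12. The counts of called members moved with single libraries: without retinoic acid library 1, 3 were higher, and without retinoic acid library 2, vehicle library 1 or vehicle library 2, 2 were higher. Without retinoic acid library 2 or vehicle library 3, 2 were lower. Libraries of the groups did not overlap for 8 members, 5 higher and 3 lower with retinoic acid, where 25.5% of all tested genes were so arranged, 12.9% higher and 12.6% lower. The calls above used no term for the replicate number. With that term 6 members were called higher and 3 lower, and 16.6% of all tested genes were called. The authors' deposited table gives 6 members an FDR under 0.05, and all 6 are called here with the same sign. Untested were Slc30a3, with 3, 4 and 7 counts in retinoic acid libraries and 8, 9 and 7 in vehicle libraries, and Slc39a12, with 0 counts in retinoic acid libraries and 2 in 1 vehicle library.

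**Figure D1:**
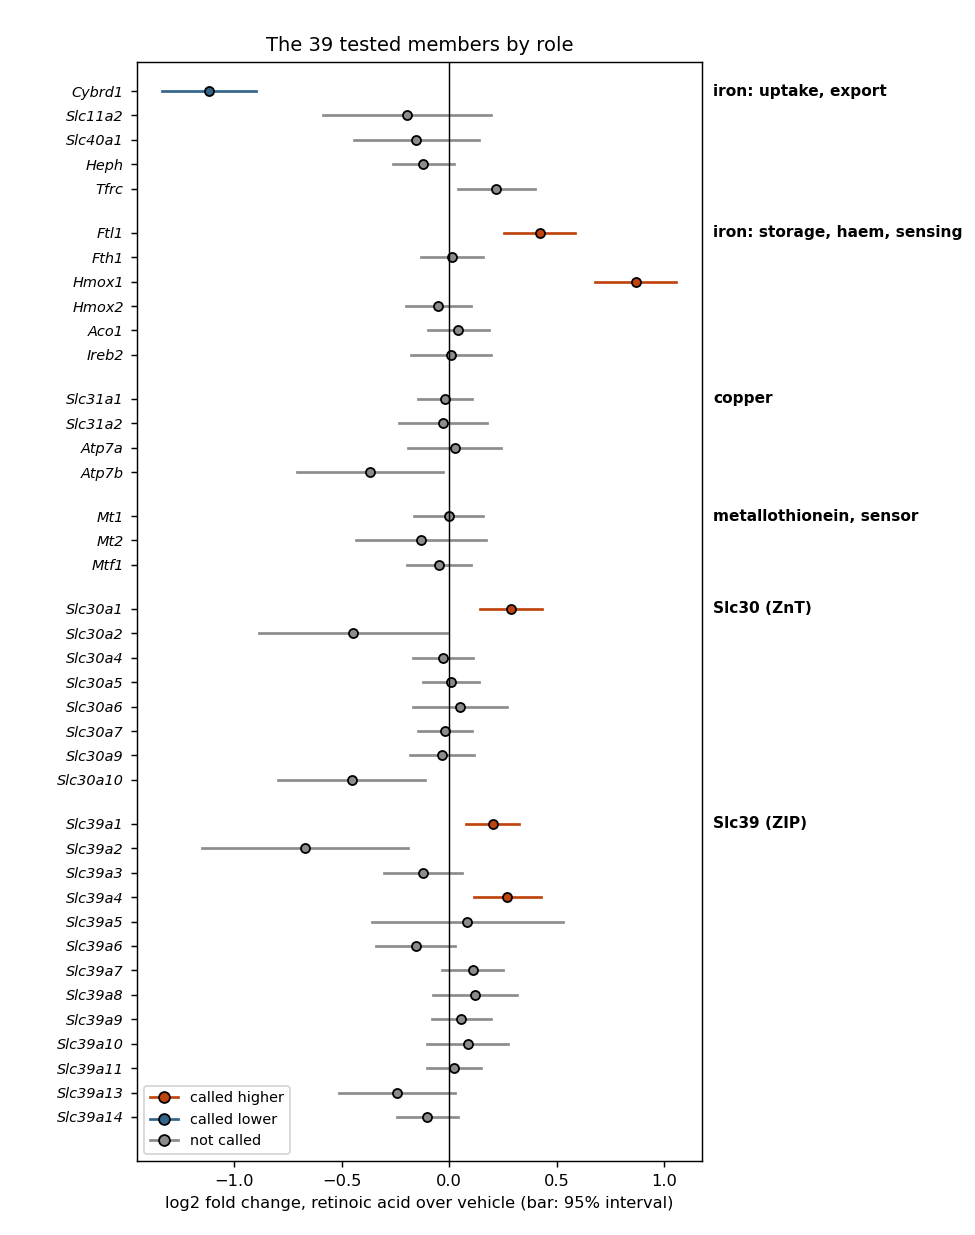
The log2 fold change of retinoic acid over vehicle (horizontal axis) is plotted for the 39 tested members grouped by role, with bars for the 95% interval. Cybrd1 lies farthest left at −1.12, Hmox1 lies farthest right at 0.87, and most other members lie close to 0.

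Among the genes of iron entry and exit, Cybrd1 was lower and no other was called. Cybrd1 (ENSMUSG00000027015, mm10 chromosome 2, 71117923 to 71142926) encodes duodenal cytochrome b, which reduces ferric iron at the brush border. It had 31.5, 30.8 and 27.5 CPM in retinoic acid libraries 1, 2 and 3, against 68.6, 71.4 and 54.8 CPM in vehicle libraries 1, 2 and 3. Every retinoic acid library lay below every vehicle library, and the group means were 29.95 ± 2.13 and 64.9 ± 8.92 CPM (SD, n = 3 each). Cybrd1 was thus 2.17-fold lower, with a log2 fold change of −1.12 (standard error, SE, 0.10; adjusted p = 5.95e-06). Its log2 fold change stayed between −1.22 and −1.04 with any 1 library left out.

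Slc11a2, which encodes the ferrous iron importer DMT1, had 129, 188 and 141 CPM in retinoic acid libraries against 141, 245 and 137 CPM in vehicle libraries. The groups overlapped, and library 2 was the highest of both (log2 fold change −0.20, SE 0.18, adjusted p = 0.604). Without vehicle library 2 its log2 fold change was 0.13. Slc40a1, the gene of the basolateral exporter ferroportin, had 71.6, 73.6 and 57.7 CPM in retinoic acid libraries against 67.2, 96.0 and 61.8 CPM in vehicle libraries. Here too the groups overlapped and vehicle library 2 stood highest (−0.15, SE 0.14), and without that library the log2 fold change was 0.07. Heph, which encodes the ferroxidase hephaestin that works beside ferroportin, had 160, 141 and 148 CPM in retinoic acid libraries against 163, 171 and 154 CPM in vehicle libraries. The groups overlapped and Heph was not called, and its 95% interval of the fold reached from 0.834 to 1.02. Of the 5 genes of a list of intestinal iron genes driven by the hypoxia factor HIF-2 in mice (Cybrd1, Slc11a2, Slc40a1, Heph and the copper pump gene Atp7a), 1 was lower and none higher. Of all tested genes 4.09% were lower. The list's median log2 fold change was −0.15, the value of Slc40a1, and without vehicle library 2 it was −0.0014, the value of Atp7a. Epas1, which encodes HIF-2 alpha, had 69.9 ± 0.831 CPM with retinoic acid and 70.4 ± 2.20 CPM with vehicle (SD, n = 3 each; adjusted p = 0.946).

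The ratio of Cybrd1 to Slc11a2 counts within a library, which does not depend on the scaling of libraries, was 0.245, 0.164 and 0.195 in retinoic acid libraries against 0.486, 0.292 and 0.399 in vehicle libraries. The groups did not overlap (exact permutation test, two-sided, p = 0.1, the smallest that 3 against 3 libraries allow).

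**Figure D2:**
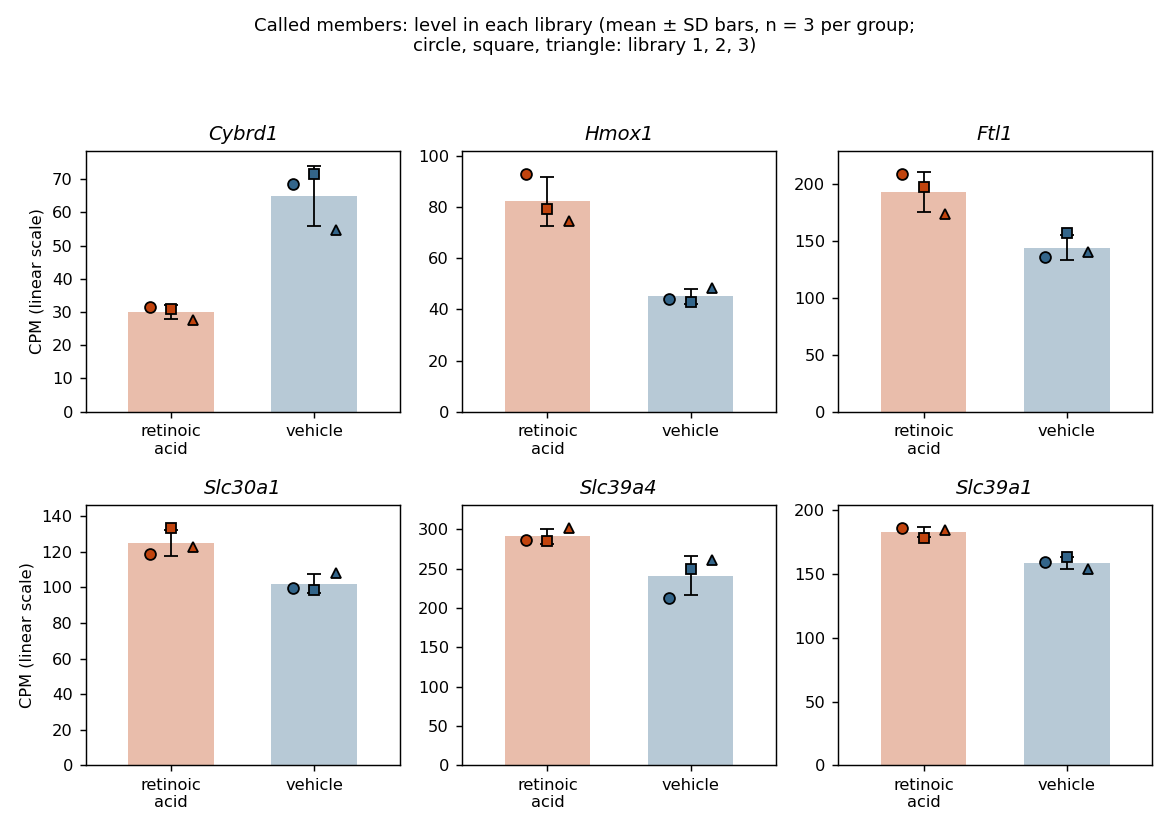
CPM (vertical axes, from 0) of the 6 called members in each library, with bars for the group mean and SD (n = 3). The libraries of the groups do not overlap in any panel: Cybrd1 is lower with retinoic acid, and Hmox1, Ftl1, Slc30a1, Slc39a4 and Slc39a1 are higher.

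Ferritin transcripts carry a short hairpin near their start, the iron-responsive element, to which iron regulatory proteins bind when iron is scarce. The elements of both ferritin genes are shown because 1 of these genes was called and the other was not, and that of ferroportin because its mRNA carries the same kind of element. Each line gives 30 bases of a 5′ UTR, written as DNA from GENCODE M21 transcripts (GRCm38), with the loop in capitals.
Ftl1 (chr7:45459778-45459807, minus strand): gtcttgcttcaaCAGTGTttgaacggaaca
Fth1 (chr19:9982732-9982761, plus strand): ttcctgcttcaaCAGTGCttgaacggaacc
Slc40a1 (chr1:45925464-45925493, minus strand): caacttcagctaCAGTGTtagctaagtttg
The pattern searched was a C, 5 bases, the loop CAGTG followed by A, C or T, and 5 bases that pair with the first 5, G with T allowed, on the transcript strand. It occurred in the 5′ UTR of 0.110% of 20916 protein-coding genes. The scanned transcripts of Slc11a2, Cybrd1 and Hmox1 held no match over their whole length. Elements that depart from this strict pattern would be missed, so the lack of a match does not show that an element is absent. Counts of reads do not measure translation.

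Ftl1 (ENSMUSG00000050708, mm10 chromosome 7, 45457944 to 45459884), the gene of the ferritin light chain, had 209, 198 and 174 CPM in retinoic acid libraries 1, 2 and 3, against 136, 157 and 140 CPM in vehicle libraries. The groups did not overlap, and Ftl1 was 1.34-fold higher (log2 fold change 0.42, SE 0.08, adjusted p = 0.00276). A near-identical copy on chromosome 13, listed as Gm10116, rose as well (0.52, SE 0.08, adjusted p = 0.00133), and how their reads were divided is not known. Their summed level was 261, 248 and 219 CPM in retinoic acid libraries against 171, 189 and 176 CPM in vehicle libraries, so the sum did not overlap either. Fth1, the gene of the heavy chain with the ferroxidase site, had 852, 957 and 911 CPM in retinoic acid libraries against 810, 935 and 951 CPM in vehicle libraries. These overlapped, with a fold of 1.01 and a 95% interval from 0.912 to 1.12. The ratio of Ftl1 to Fth1 counts was 0.245, 0.206 and 0.191 in retinoic acid libraries against 0.168, 0.168 and 0.148 in vehicle libraries, without overlap (exact permutation test, two-sided, p = 0.1, the smallest possible).

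Tfrc encodes the transferrin receptor, whose mRNA is stabilised through iron-responsive elements in its 3′ UTR. The pattern above was found 4 times there, and these are shown to set them beside the 5′ elements.
Tfrc element 1 (chr16:32631219-32631248, plus strand): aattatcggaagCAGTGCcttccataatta
Tfrc element 2 (chr16:32631598-32631627, plus strand): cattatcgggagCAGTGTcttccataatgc
Tfrc element 3 (chr16:32631663-32631692, plus strand): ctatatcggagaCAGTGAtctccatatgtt
Tfrc element 4 (chr16:32631710-32631739, plus strand): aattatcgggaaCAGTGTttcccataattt
Tfrc had 382, 394 and 313 CPM in retinoic acid libraries against 316, 335 and 283 CPM in vehicle libraries. Libraries 1 and 2 with retinoic acid lay above every vehicle library and library 3 did not, and Tfrc was not called (log2 fold change 0.22, SE 0.08, adjusted p = 0.134). It was called higher under 4 alternatives: with the replicate number as a term (adjusted p = 0.00216), without a filter on low counts (0.00606), with retinoic acid library 3 left out (0.00253) and with library 3 of both groups left out (0.00714). The genes of the iron regulatory proteins themselves were not called either. Aco1, which encodes the dual aconitase and regulator IRP1, had 91.2, 86.7 and 93.5 CPM in retinoic acid libraries against 84.1, 86.7 and 92.9 CPM in vehicle libraries. Ireb2, which encodes IRP2, had 125, 116 and 103 CPM in retinoic acid libraries against 125, 117 and 101 CPM in vehicle libraries. The groups overlapped for both, with 95% intervals of the fold from 0.935 to 1.14 for Aco1 and from 0.886 to 1.15 for Ireb2.

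Hmox1 (ENSMUSG00000005413, mm10 chromosome 8, 75093591 to 75100596) encodes the inducible haem oxygenase, which opens the haem ring and frees its iron. It had 92.9, 79.4 and 74.7 CPM in retinoic acid libraries against 44.1, 42.8 and 48.6 CPM in vehicle libraries. The groups lay well apart, at 82.3 ± 9.46 and 45.2 ± 3.02 CPM (SD, n = 3 each), and Hmox1 was 1.83-fold higher (log2 fold change 0.87, SE 0.09, adjusted p = 1.94e-05). Its constitutive relative Hmox2 had 57.3, 58.4 and 62.8 CPM in retinoic acid libraries against 61.0, 59.7 and 64.2 CPM in vehicle libraries, with a 95% interval of the fold from 0.870 to 1.07. There were thus 1.62, 1.36 and 1.19 counts of Hmox1 for each count of Hmox2 in retinoic acid libraries 1, 2 and 3, against 0.723, 0.717 and 0.757 in vehicle libraries (exact permutation test, two-sided, p = 0.1, the smallest possible).

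**Figure D3:**
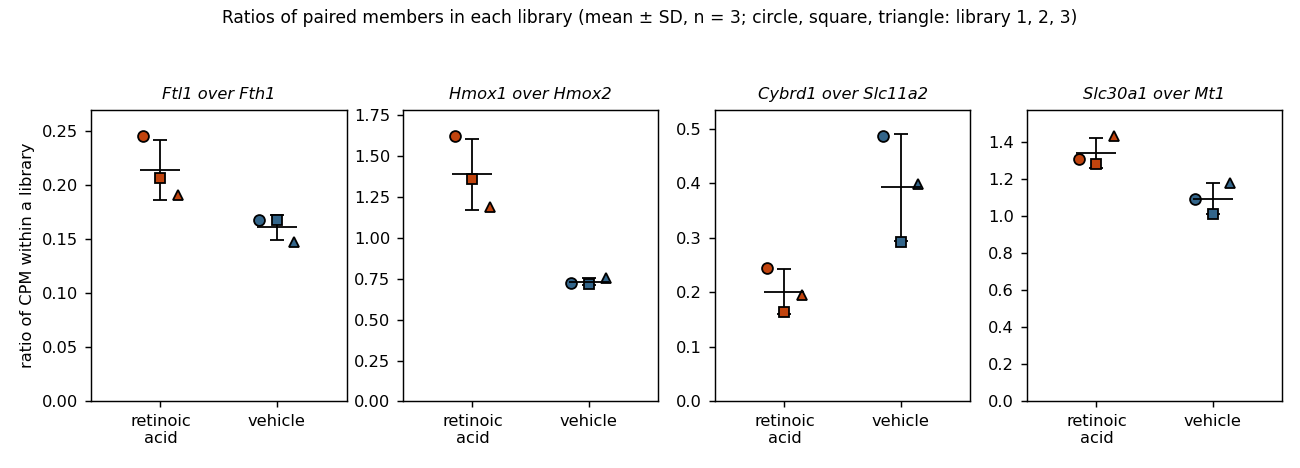
Ratio of the CPM of 2 members within each library (vertical axes, from 0), with the mean and SD of each group (n = 3). The retinoic acid libraries lie above the vehicle libraries for Ftl1 over Fth1, Hmox1 over Hmox2 and Slc30a1 over Mt1, and below them for Cybrd1 over Slc11a2. Each ratio shown sets a called member over an uncalled one. The ratios Slc39a4 over Slc30a1 and Mt1 over Mt2, which overlapped between the groups, are not shown.

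Hmox1 and Ftl1 belong to a list of 13 targets of the oxidative stress factor NRF2. Of these 13, Hmox1 and Ftl1 included, 11 were higher and none lower, with a median log2 fold change of 0.69. Of all tested genes 5.37% were higher. The list was chosen with earlier results of these data known, and a part of NRF2 in these changes was not tested. The list's other calls were Srxn1, Osgin1, Nqo1, Gclm, Gsr, Gclc, Txnrd1, Slc7a11 and G6pdx. Most of them, though not Osgin1, are genes of thiol and quinone reduction, glutathione synthesis and NADPH supply. The largest of these other calls was Osgin1 at 1.90-fold and the smallest G6pdx at 1.25-fold. Fth1 and Slc40a1 are also on the list and were its uncalled members. Bach1, which encodes a haem-binding repressor of Hmox1 and the ferritin genes, had 268, 268 and 258 CPM in retinoic acid libraries against 328, 332 and 312 CPM in vehicle libraries. Every retinoic acid library lay below every vehicle library (log2 fold change −0.29, SE 0.06, adjusted p = 0.00331). Blvrb, which encodes a biliverdin reductase downstream of haem oxygenase, had 11.1, 14.9 and 9.70 CPM in retinoic acid libraries against 6.24, 6.34 and 6.78 CPM in vehicle libraries, 1.83-fold higher (adjusted p = 0.00401). Blvra, of the other biliverdin reductase, was not called (7.76 CPM on average with retinoic acid and 8.06 CPM with vehicle, adjusted p = 0.921).

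In zinc transport the called changes were small and upward, and they included a gene of uptake at the brush border and a gene of export. Slc39a4 (ENSMUSG00000063354, mm10 chromosome 15, 76612385 to 76616852), the gene of the apical importer ZIP4 that is defective in human acrodermatitis enteropathica, had 286, 285 and 301 CPM in retinoic acid libraries against 213, 250 and 261 CPM in vehicle libraries. Slc30a1 (ENSMUSG00000037434, mm10 chromosome 1, 191906767 to 191913247), of the plasma membrane exporter ZnT1, had 119, 133 and 123 CPM in retinoic acid libraries against 99.8, 98.5 and 108 CPM in vehicle libraries. Slc39a1 (ENSMUSG00000052310, mm10 chromosome 3, 90248172 to 90253612), of the plasma membrane importer ZIP1, had 186, 178 and 184 CPM in retinoic acid libraries against 160, 163 and 154 CPM in vehicle libraries. For these 3 genes every retinoic acid library lay above every vehicle library. Slc30a1 was 1.22-fold, Slc39a4 1.21-fold and Slc39a1 1.15-fold higher, with adjusted p of 0.0137, 0.0280 and 0.0390. The calls did not hold with every library left out. That of Slc30a1 was lost without retinoic acid library 2 (adjusted p = 0.0727) or vehicle library 1 (0.0612) or 2 (0.0734), and its adjusted p lay between 0.000918 and 0.0734 over the alternatives. That of Slc39a4 was lost without library 1 or 2 of either group (0.0736 and 0.0598 for retinoic acid, 0.118 and 0.0656 for vehicle; 0.000417 to 0.118 over the alternatives). That of Slc39a1 was lost whichever library was left out (adjusted p 0.0516 to 0.165) and without library 3 of both groups (0.0840; 0.00750 to 0.165 over the alternatives). An antisense gene, 1700034H15Rik, overlaps Slc30a1 by 468 exon bases, and whether counting used strand is not given in the sources used here. It had 22.7 ± 2.28 CPM with retinoic acid and 20.2 ± 2.97 CPM with vehicle (SD, n = 3 each) and was not called.

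The metallothionein genes, the best known targets of the zinc sensor MTF1 beside Slc30a1, did not pass the test. Mt1 had 90.5, 104 and 85.9 CPM in retinoic acid libraries against 91.1, 97.1 and 91.9 CPM in vehicle libraries. Mt2 had 18.6, 15.7 and 14.9 CPM in retinoic acid libraries against 20.2, 19.6 and 14.02 CPM in vehicle libraries. The groups overlapped for both, with 95% intervals of the fold from 0.893 to 1.12 for Mt1 and from 0.740 to 1.13 for Mt2. Their ratio, Mt1 over Mt2, overlapped as well (exact permutation test, two-sided, p = 0.7). It was 5.755 ± 0.879 with retinoic acid and 5.34 ± 1.08 with vehicle (SD, n = 3 each). Mtf1 itself had 77.2, 69.7 and 78.4 CPM in retinoic acid libraries against 77.9, 74.1 and 81.1 CPM in vehicle libraries and was not called. The ratio of Slc30a1 to Mt1 counts was 1.31, 1.28 and 1.43 in retinoic acid libraries against 1.096, 1.01 and 1.18 in vehicle libraries, without overlap (exact permutation test, two-sided, p = 0.1, the smallest possible). The ratio of Slc39a4 to Slc30a1 counts overlapped between the groups, at 2.33 ± 0.170 with retinoic acid and 2.36 ± 0.205 with vehicle (SD, n = 3 each; exact permutation test, two-sided, p = 1.0).

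The promoters of Slc30a1, Mt1 and Mt2 are shown because these genes share MTF1 as a regulator and differed in their calls. Each line gives the 250 bases before the RefSeq start (GRCm38), with matches to the metal response element in capitals (TGCACNC or TGCGCNC, both strands).
Slc30a1 (chr1:191906531-191906780, plus strand): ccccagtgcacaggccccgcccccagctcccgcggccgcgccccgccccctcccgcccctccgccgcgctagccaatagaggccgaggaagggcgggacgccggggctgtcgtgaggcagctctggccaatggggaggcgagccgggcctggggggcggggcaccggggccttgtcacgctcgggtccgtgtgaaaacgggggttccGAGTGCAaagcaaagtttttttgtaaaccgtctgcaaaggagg
Mt1 (chr8:94178839-94179088, plus strand): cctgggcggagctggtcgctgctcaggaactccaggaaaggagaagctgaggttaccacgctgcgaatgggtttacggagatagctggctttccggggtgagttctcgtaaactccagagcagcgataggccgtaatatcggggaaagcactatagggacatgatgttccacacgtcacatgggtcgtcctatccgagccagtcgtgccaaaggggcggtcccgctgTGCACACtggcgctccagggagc
Mt2 (chr8:94172368-94172617, plus strand): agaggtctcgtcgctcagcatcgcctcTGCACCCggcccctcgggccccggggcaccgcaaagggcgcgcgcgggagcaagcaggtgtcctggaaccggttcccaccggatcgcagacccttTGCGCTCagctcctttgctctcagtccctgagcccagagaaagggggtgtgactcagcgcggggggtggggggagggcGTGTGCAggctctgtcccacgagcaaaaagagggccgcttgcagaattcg
The 50 bases after the start held 1 more match in Slc30a1, 2 more in Mt1 and 1 more in Mt2. The element occurred in 25.7% of 32851 RefSeq promoter windows of 300 bases, and in 44.2% of the 43 windows of the 34 members listed there. Of the 4 called members listed, only Slc30a1 held it. The antioxidant response element of NRF2 (TGACNNNGC, both strands) was found in 12.4% of all windows and in 18.6% of the members' windows, among them those of Slc30a1 and Slc39a1. The hypoxia response element (ACGTG or GCGTG, both strands) was found in 43.8% of all windows and in 60.5% of the members' windows, among them those of all 4 called members listed, Cybrd1, Ftl1, Slc30a1 and Slc39a1. For the repeats bound by retinoic acid receptors, the half-site AGGTCA was searched, with AGTTCA as a variant. The variant GGGTCA was allowed as well, and so was GGTTCA. Any 2 of these in the same direction with 1, 2 or 5 bases between, on either strand, were found in 0.588% of all windows and in 0 of the 43. Slc39a4, Hmox1, Slc40a1, Slc11a2, Heph, Slc39a14 and Slc39a6 have no window in the table used.

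Of the 13 tested ZIP genes 2 were higher and none lower, and the median log2 fold change was 0.06. That was 15.4% called, against 9.46% of all tested genes, 5.37% higher and 4.09% lower. Only Slc39a2 of the ZIP genes was lower at an unadjusted p under 0.05, and DESeq2 and limma-voom also called none lower. Slc39a14, whose product carries zinc, iron and manganese, had 379, 374 and 346 CPM in retinoic acid libraries against 369, 430 and 379 CPM in vehicle libraries. Slc39a5, of the basolateral importer ZIP5, had 4.97, 4.20 and 5.96 CPM in retinoic acid libraries against 3.81, 4.86 and 5.73 CPM in vehicle libraries. Both overlapped between the groups, and the low counts of Slc39a5 left a wide 95% interval of the fold, from 0.780 to 1.44. The lowest log2 fold change of the family was that of Slc39a2, at 2.44, 2.85 and 2.78 CPM in retinoic acid libraries against 3.81, 5.15 and 3.82 CPM in vehicle libraries (−0.67, SE 0.22, adjusted p = 0.0814). Its groups did not overlap, but it was not called, and its exons overlap those of Mettl17 on the same strand by 151 bases. Slc39a6 also lay lower without overlap, at 29.1 ± 1.97 CPM with retinoic acid and 32.3 ± 0.588 CPM with vehicle (SD, n = 3 each), and was not called (adjusted p = 0.321). The other uncalled ZIP genes, Slc39a3, Slc39a7, Slc39a8, Slc39a9, Slc39a10, Slc39a11 and Slc39a13, had log2 fold changes between −0.24 and 0.12.

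Of the 8 tested ZnT genes 1 was higher and none lower, with a median log2 fold change of −0.02. That was 12.5% called, against 9.46% of all tested genes, 5.37% higher and 4.09% lower. Slc30a10 and Slc30a2 were the 2 ZnT genes lower at an unadjusted p under 0.05. DESeq2 and limma-voom also called none lower, while 5 alternatives called Slc30a10 lower. Slc30a10, which encodes an exporter of manganese, was the most abundant ZnT gene per exon length. It had 356, 431 and 257 CPM in retinoic acid libraries against 458, 589 and 380 CPM in vehicle libraries. In both groups library 2 was highest and library 3 lowest, so the groups overlapped although each retinoic acid library lay below the vehicle library of the same number. It was not called (log2 fold change −0.45, SE 0.16, adjusted p = 0.0997). DESeq2 gave it an SE of 0.28 (adjusted p = 0.409). Slc30a10 passes the filter on low counts, but without that filter its SE fell to 0.06. It was called lower with the replicate number as a term (adjusted p = 2.50e-06), without a filter on low counts (1.64e-10), without retinoic acid library 2 (0.0254), without vehicle library 3 (0.0267, log2 fold change −0.59) and without library 3 of both groups (0.00389). Slc30a2, of a vesicular zinc transporter, had 3.83 ± 0.607 CPM with retinoic acid and 5.20 ± 0.817 CPM with vehicle (SD, n = 3 each; adjusted p = 0.221). The genes of the early secretory pathway transporters Slc30a5, Slc30a6 and Slc30a7, of the endosomal transporter Slc30a4 and of the mitochondrial transporter Slc30a9 had log2 fold changes between −0.03 and 0.05, and the 95% intervals of their folds lay within 0.8 to 1.25.

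None of the 4 copper transporter genes was called without the replicate number in the model, by edgeR, DESeq2 or limma-voom, and 1, Atp7b, had an unadjusted p under 0.05. With the replicate number as a term Atp7b was called lower, as given with the numbered pairs. Slc31a1, of the high-affinity importer CTR1, had 246, 257 and 239 CPM in retinoic acid libraries against 247, 262 and 242 CPM in vehicle libraries. Its relative Slc31a2 had 19.7 ± 0.597 CPM with retinoic acid and 20.1 ± 0.970 CPM with vehicle (SD, n = 3 each). The groups overlapped for both. Atp7a, of the pump that exports copper from enterocytes, had 29.5, 30.4 and 24.6 CPM in retinoic acid libraries against 29.8, 26.5 and 26.5 CPM in vehicle libraries. Atp7b, of the pump that is defective in human Wilson disease, had 9.94, 10.5 and 12.4 CPM in retinoic acid libraries against 11.2, 14.04 and 17.4 CPM in vehicle libraries. Atp7b overlapped between the groups, with a log2 fold change of −0.37 (SE 0.16, adjusted p = 0.189). In all, the 95% interval of the fold lay within 0.8 to 1.25 for 22 of the 33 uncalled members.

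Same-numbered libraries of the groups deviated together over all genes, most clearly library 3. Libraries 1 and 2 correlated at 0.166 and 0.124 within numbers, and at 0.0885 and 0.0922 across them. A model with the replicate number as a term called 6 members higher and 3 lower. It called 16.6% of all tested genes, 8.93% higher and 7.68% lower. The further calls were Slc30a10, Tfrc and Atp7b. With this replicate block Slc30a10 had a log2 fold change of −0.46 (SE 0.05, adjusted p = 2.50e-06; 1.64e-10 to 0.417 over the alternatives). Its level with retinoic acid was 0.776, 0.732 and 0.676 times that with vehicle in libraries 1, 2 and 3. Tfrc had a log2 fold change of 0.22 (SE 0.04, adjusted p = 0.00216; 0.00216 to 0.408 over the alternatives), and Atp7b one of −0.36 (SE 0.12, adjusted p = 0.0470; 0.0470 to 0.547 over the alternatives). Tfrc was higher in 3 of 3 numbered pairs and Atp7b lower in 3 of 3. Slc11a2 was not called with the block either (−0.16, SE 0.06, adjusted p = 0.103).

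**Figure D4:**
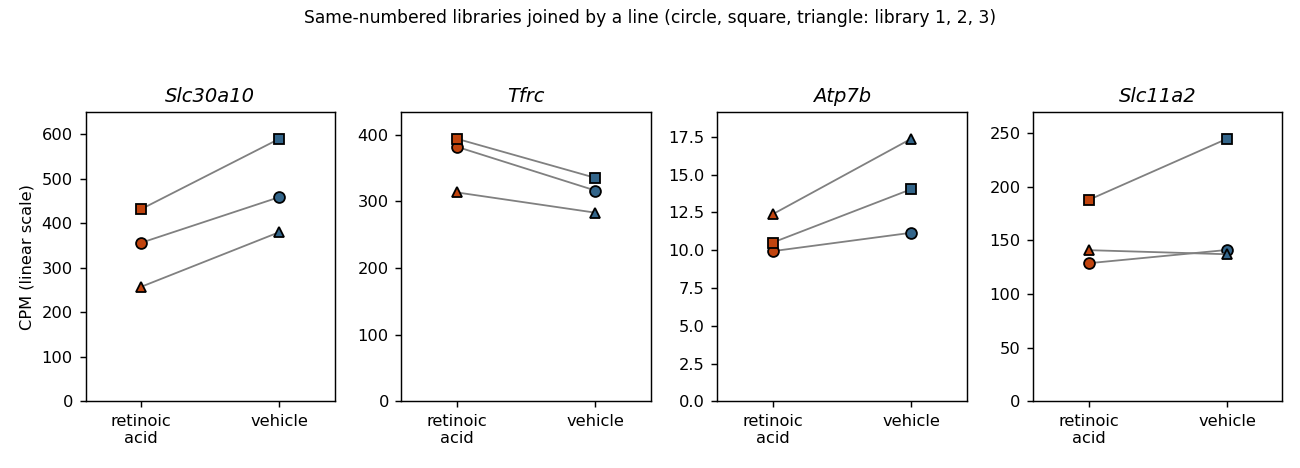
CPM (vertical axes, from 0) of Slc30a10, Tfrc, Atp7b and Slc11a2, with lines that join the retinoic acid library and the vehicle library of the same number. All 3 lines of Slc30a10 and Atp7b run lower on the retinoic acid side and all 3 of Tfrc run higher, while those of Slc11a2 differ in direction.

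Other genes of metal handling were taken from a list of 55 genes, of which 41 were tested. This list too was chosen with earlier results of these data known, so its share of calls may be raised by that choice. Of these 6 were higher and 2 lower, with a median log2 fold change of 0.02. That was 19.5% called, against 9.46% of all tested genes, 5.37% higher and 4.09% lower. Bach1 and Blvrb are described above, and Steap1, of a family of membrane metalloreductases, was also called, at 61.3 ± 1.397 CPM with retinoic acid and 48.6 ± 1.67 CPM with vehicle (SD, n = 3 each; 1.26-fold, adjusted p = 0.00677). Of the 11 tested copper genes 4 were higher and 1 lower. Aoc1, which encodes the copper-containing diamine oxidase of the gut, listed under its older name Abp1, had 80.2, 81.6 and 85.1 CPM in retinoic acid libraries against 43.5, 45.0 and 49.1 CPM in vehicle libraries. This was the clearest change among copper genes, 1.80-fold higher (log2 fold change 0.85, SE 0.07, adjusted p = 3.18e-06). Sod1, of the copper and zinc superoxide dismutase, was 1.29-fold higher (adjusted p = 0.0116). Sco1 and Cox17, which deliver copper to cytochrome oxidase, were 1.22-fold and 1.19-fold higher (adjusted p 0.0360 and 0.0439), and Cox19, also an assembly factor of that enzyme, had a log2 fold change of −0.33 (SE 0.09, adjusted p = 0.0334). The number of higher genes was 3 without retinoic acid library 1 or vehicle library 1, and that of lower genes 1 without 4 of the 6 libraries in turn. With 1 library left out, the call of Sco1 stayed only without retinoic acid library 3. That of Cox17 stayed only without retinoic acid library 2 or 3, and that of Cox19 only without retinoic acid library 3 or vehicle library 1. Sod1 lost its call without library 1 of either group. Aoc1, Bach1, Blvrb and Steap1 kept theirs throughout.

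Per exon length and averaged over both groups, the ferritin genes and the zinc importer genes Slc39a7 and Slc39a4 were the most abundant members. Fth1 averaged 261 RPKM with retinoic acid and 259 RPKM with vehicle (counts per 1000 bases of annotated exon and 1000000 reads) and ranked 120 among tested genes. Ftl1 averaged 144 RPKM with retinoic acid and 108 RPKM with vehicle. Slc39a7, of an importer into the cytosol from the endoplasmic reticulum, averaged 132 and 123 RPKM, so it lay below Ftl1 with retinoic acid and above it with vehicle. Slc39a4 came after these with retinoic acid, at 93.6 RPKM. With vehicle it had 77.6 RPKM, below the 81.5 RPKM of Slc30a10. The level of Slc39a7 is uncertain, since Gm20427 on the same strand shares 2084 of its exon bases. Among ZnT genes Slc30a10 came first, at 59.6 and 81.5 RPKM, and Slc30a1 followed Slc30a4, at 23.8 and 19.5 RPKM. Cybrd1 averaged 5.61 RPKM with retinoic acid and 12.2 RPKM with vehicle. Lengths are unions of all annotated exons, so a gene whose union is longer than its counted mRNA is understated. For Fth1 the union was 3469 bases, longer than the span of its counted row (mm10 chromosome 19, 9982703 to 9985092). Its RPKM and rank are therefore uncertain.

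**Figure D5:**
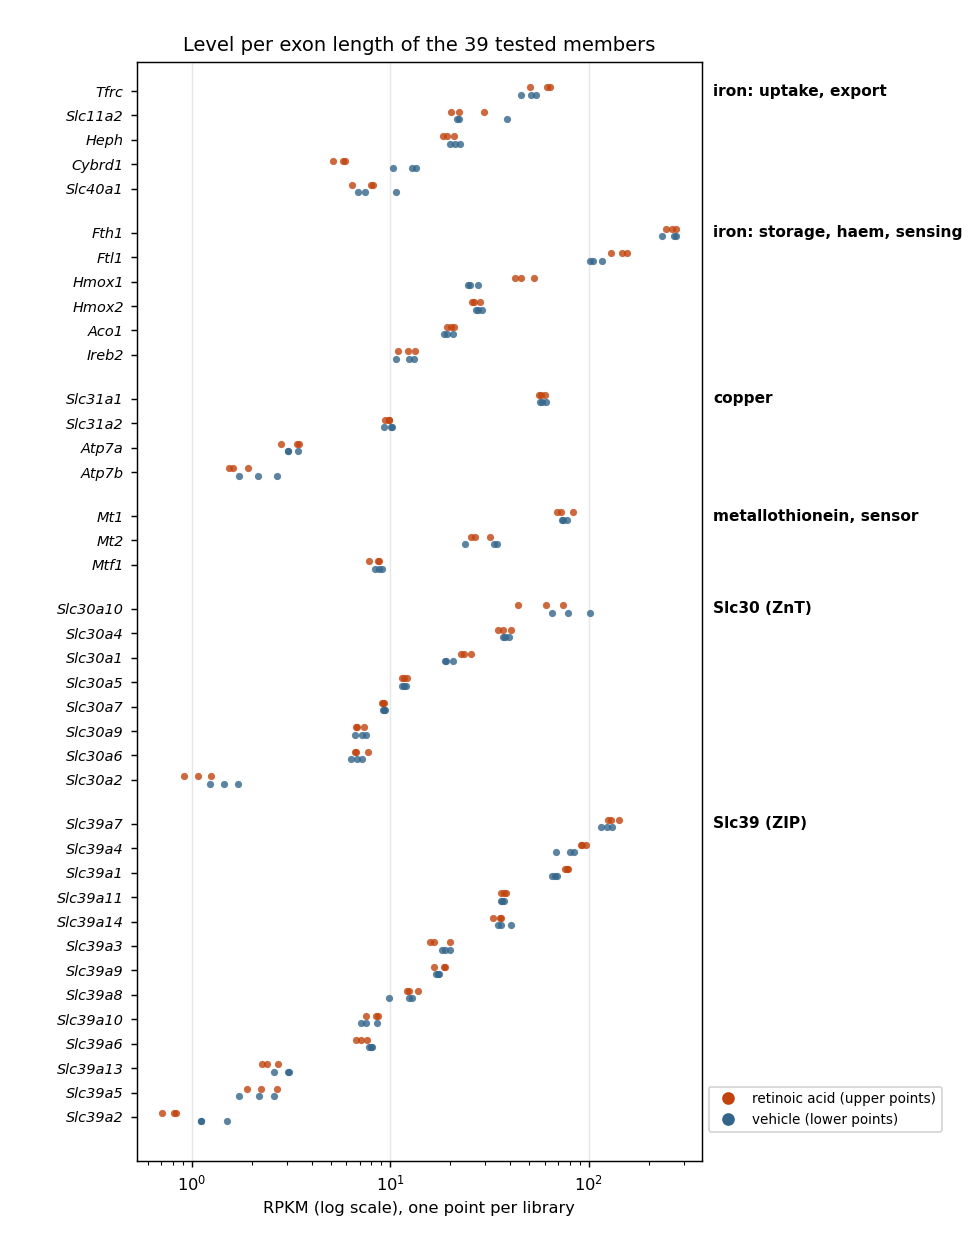
RPKM (horizontal axis, log scale) of the 39 tested members in each library, grouped by role and ordered by level within a group, with retinoic acid above vehicle. Mean levels with retinoic acid span from 0.780 RPKM for Slc39a2 to 261 RPKM for Fth1, and the groups are visibly apart for Cybrd1 and Hmox1.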

How the data were processed

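Counts were read from 1 table of the whole series. The deposited values are raw read counts per gene in 6 libraries, per the file headers, from directional polyA libraries, per the labels' protocols, with mm10 named in the submitters' processing notes. Which aligner, annotation and strand setting were used is not stated in what was available. The authors' deposited p-value, FDR and log2 fold change come from DESeq, per the file headers, and were used only for comparison. Groups and replicate numbers are from the sample titles.

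Members and lists were chosen with earlier results of these data known. Counts were analysed with edgeR 4.0.16 (R 4.3.3): filterByExpr (13700 genes, at least 99.89% of each library's reads), TMM (factors 0.978 to 1.023) and a two-sided quasi-likelihood test of treatment, with Benjamini-Hochberg adjustment over all tested genes at 0.05. The biological coefficient of variation was 7.81%. SE is the log2 fold change divided by the square root of F, and the 95% intervals, unadjusted, use it. The steps were run on counts simulated with independent libraries and known folds, which does not test a structure shared by same-numbered libraries. The outcome is not given here. RPKM used exon unions of GENCODE M21 (GRCm38). List genes were matched by symbol or gene ID (52 of 55 other metal genes are in the table). Replicate pairs differed by more than counting noise (chi-square 4.09 to 11.1 per gene, where noise gives about 1). Values per library are given for every called member and for a set of members chosen together with the lists, whatever their call; a member could also be named as its family's extreme, and every called gene of the other metal list is named. Hmox2, Slc30a2, Slc31a2, Slc39a6, Slc39a7, Gm10116, Epas1, Blvra, Fabp1, Cd68, Csf1r, Tagln, Pdgfrb and the NRF2 targets fall outside this rule. They were named after their values were seen.

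The labels give the groups the same replicate numbers without saying what these share. Deviations from group means correlated over genes at 0.166, 0.124 and 0.346 for same-numbered libraries 1, 2 and 3 of the groups. Across numbers 1 and 2 they correlated at 0.0885 and 0.0922, and across number 3 and the others at −0.226 to −0.178. The numbers thus mainly set library 3 apart, and whether they pair the samples is not known. The main test left them out, and a model with the replicate number as a term, the replicate block, was an alternative. Alternatives were DESeq2 size factors, no filter, a minimum of 10 counts throughout at least 1 group, DESeq2 1.42.0, limma-voom (limma 3.58.1), the replicate block, each library left out, and 2 chosen after seeing the data: leaving out library 3 of both groups, which stood apart in the data, and adding Gm10116 to Ftl1.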

Additional observations from a re-analysis of the deposited data

How the results depend on the processing

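Cybrd1, Hmox1 and Ftl1 kept direction and call under all 14 alternatives, with log2 fold changes of −1.22 to −1.04, 0.77 to 0.99 and 0.36 to 0.49. With DESeq2, limma-voom, DESeq2 size factors or the minimum of 10 counts, 5 members were called higher and 1 lower, as reported. Without a filter on low counts 2 members were lower, and with library 3 of both groups left out also 2. Slc30a10 was the further one. Both settings also called Tfrc higher, as did leaving out retinoic acid library 3. Dropping the filter changed the SE of members that pass it. It fell from 0.16 to 0.06 for Slc30a10 and from 0.08 to 0.06 for Tfrc, and rose from 0.06 to 0.07 for Slc39a1. Under the replicate block 3 members were lower, and 1224 genes were called higher and 1052 lower in all, against 736 and 560 without it; it changed no call of a member beside Slc30a10, Tfrc and Atp7b. With 1 library left out, 2 to 5 members were higher and 1 to 2 lower, 3 to 6 other metal genes higher and 1 to 3 lower, 443 to 978 of all genes higher and 289 to 787 lower, 10 to 11 NRF2 targets were higher and 1 HIF-2 gene was lower. The cause of these differences was not tested.

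Signs turned only for members that were not called. The log2 fold change of Mt1 was 0.00013 with DESeq2 size factors, 0.0080 without a filter, 0.00030 with DESeq2 and 0.043 with library 3 of both groups left out, where Slc39a11 had −0.00046 and Slc30a5 −0.027. With 1 library left out the log2 fold changes ran from −0.082 to 0.055 for Mt1, −0.022 to 0.10 for Slc30a6, −0.028 to 0.12 for Atp7a, −0.070 to 0.084 for Ireb2, −0.079 to 0.0031 for Mtf1, −0.088 to 0.020 for Slc30a4, −0.058 to 0.057 for Fth1, −0.059 to 0.23 for Slc39a5, −0.046 to 0.015 for Slc31a1, −0.011 to 0.027 for Slc30a5, −0.27 to 0.067 for Slc40a1, −0.37 to 0.13 for Slc11a2 and −0.076 to 0.012 for Slc30a9. Slc39a2, Slc39a5 and Slc30a2 had under 7 CPM, which limits what could be detected.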
